A study of Mus musculus with 26 samples.

Results

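The interferon regulatory factors (IRFs) analysed here were Irf1, Irf2, Irf3, Irf4, Irf5, Irf7, Irf8 and Irf9, which are 8 of the 52636 genes listed in each library. They were chosen by their symbols, mapped to Ensembl gene identifiers. No measured value set the membership, but earlier results of these data were known when the members were chosen. RNA sequencing covered 26 libraries from mouse bone marrow in 6 groups. Wild-type mice (WT) were set against littermates that lack neutrophil serine protease 4 (NSP4 KO, Prss57-/-). Granulocyte-macrophage progenitors (GMPs, Lin- SCA-1- CD117+ CD34+ with high CD16/32) and common myeloid progenitors (CMPs, the same gate with low CD16/32) were sorted from female mice, with 4 libraries per genotype. Bone marrow-derived mast cells (BMMCs, labelled BMMC-P3) were from male mice and were grown from GMPs with IL-3 and SCF, with 5 libraries per genotype. The study made a pair of Prss57-/- strains, lacking exon 2 or exons 2 and 3, and the labels do not say which was sequenced. Per the paper's supplement, the strain lacking exon 2 only served throughout, apart from the joint leakage experiments that included mice without neutrophil elastase. All groups lacked any inflammatory or interferon treatment in their labels. The age of the mice was not given in the labels.

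IRFs are transcription factors that share an amino-terminal DNA-binding domain and recognise repeats of a GAAA core, as in the interferon-stimulated response element (ISRE). Irf3, Irf5 and Irf7 are activated by phosphorylation downstream of nucleic acid and Toll-like receptors and switch on interferon and cytokine genes. Irf1, Irf2 and Irf9 act in the interferon response itself, and Irf4 and Irf8 bind with partners such as PU.1 or BATF and direct the development of myeloid and lymphoid cells. In bone marrow progenitors, Irf8 is best known for favouring monocytes and dendritic cells over neutrophils.

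The genes lie apart in the genome (GRCm38, GENCODE M21). Irf1 (ENSMUSG00000018899) extends over chr11:53770014-53778374, Irf2 (ENSMUSG00000031627) over chr8:46739732-46847458 and Irf3 (ENSMUSG00000003184) over chr7:44997648-45002848. Irf4 (ENSMUSG00000021356) extends over chr13:30749226-30766976, Irf5 (ENSMUSG00000029771) over chr6:29526625-29541871 and Irf9 (ENSMUSG00000002325) over chr14:55603571-55610030, all on the forward strand. Irf8 (ENSMUSG00000041515), also forward, extends over chr8:120736358-120756694, and Irf7 (ENSMUSG00000025498) is on the reverse strand at chr7:141262706-141266481. Exons of 5 members share bases with another gene, and whether the counting used strand is not given in the sources used here. For Irf5, 14.1% of exon bases (411) overlap Tnpo3 on the other strand, and for Irf1, Irf3, Irf7 and Irf9 the shared part is 1.19% to 3.40%.

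The promoter windows of 4 members are shown because the results turn on Irf7 and Irf8, and because Irf1, Irf2 and Irf8 are the members with matches to the patterns searched. Each window runs from 250 bases before to 50 bases after the RefSeq start (GRCm38.p6), 5′ to 3′ on the strand of the gene. Capitals mark matches, on either strand, to an ISRE core (GAAANNGAAA), a gamma-activated site, the STAT element abbreviated GAS (TTCNNNGAA), or an ETS-IRF composite element (GGAANNGAAA). The windows are chr8:120736108-120736407 (Irf8, forward), chr11:53769764-53770063 (Irf1, forward), chr8:46739495-46739794 (Irf2, forward) and chr7:141266375-141266674 (Irf7, reverse).
Irf8: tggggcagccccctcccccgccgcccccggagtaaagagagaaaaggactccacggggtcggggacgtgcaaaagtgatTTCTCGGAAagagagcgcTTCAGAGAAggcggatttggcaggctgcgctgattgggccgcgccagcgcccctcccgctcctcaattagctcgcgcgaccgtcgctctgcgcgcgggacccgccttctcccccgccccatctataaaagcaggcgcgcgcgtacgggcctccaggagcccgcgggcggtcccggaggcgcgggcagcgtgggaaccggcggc
Irf1: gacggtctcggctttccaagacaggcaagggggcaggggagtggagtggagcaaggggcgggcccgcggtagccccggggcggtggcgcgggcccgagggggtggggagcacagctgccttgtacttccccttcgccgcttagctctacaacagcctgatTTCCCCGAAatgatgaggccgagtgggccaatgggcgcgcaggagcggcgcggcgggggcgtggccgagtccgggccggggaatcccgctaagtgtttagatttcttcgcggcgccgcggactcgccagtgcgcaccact
Irf2: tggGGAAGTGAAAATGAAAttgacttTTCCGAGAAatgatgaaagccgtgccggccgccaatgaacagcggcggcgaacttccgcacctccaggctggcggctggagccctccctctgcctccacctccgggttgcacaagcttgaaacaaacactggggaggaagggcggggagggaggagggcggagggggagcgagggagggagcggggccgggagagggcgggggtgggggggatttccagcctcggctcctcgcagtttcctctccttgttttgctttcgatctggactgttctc
Irf7: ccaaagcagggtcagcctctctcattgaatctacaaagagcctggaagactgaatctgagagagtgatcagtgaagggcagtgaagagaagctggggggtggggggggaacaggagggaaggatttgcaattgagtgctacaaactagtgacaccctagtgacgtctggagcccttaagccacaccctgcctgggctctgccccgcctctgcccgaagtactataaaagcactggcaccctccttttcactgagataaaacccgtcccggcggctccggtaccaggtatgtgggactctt
The Irf8 window holds 2 GAS matches and the Irf1 window 1. The Irf2 window holds 1 ISRE core, 1 ETS-IRF element that overlaps it, and 1 GAS. In the Irf7 window, and in those of Irf3, Irf4, Irf5 and Irf9, none of these letter patterns was found. Irf1, Irf8 and Irf9 each have 2 RefSeq windows, and only the one nearest the GENCODE gene start was searched. Among all 32851 RefSeq mouse promoter windows of the same length, 3.44% hold the ISRE core, 8.30% the GAS and 2.72% the ETS-IRF element.

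Levels between genes are compared as the authors' RPKM normalized by a size factor (nRPKM), which is per length. The libraries held 32078404 to 53264762 reads on genes in GMPs and CMPs and 18627626 to 28647216 in BMMCs. Prss57, the targeted gene, was at 123 to 198 nRPKM in WT GMPs, at most 0.178 in KO GMPs and 17.0 to 32.0 in WT CMPs, with 1 read in every KO CMP library. In BMMCs it was at or near the lower limit in both genotypes, with 2 to 27 reads in WT and 0 reads in KO libraries, and 3 reads were taken as the limit that a count of 0 allows. The 7 GMP markers (the granule genes Mpo, Elane, Prtn3 and Ctsg with Cebpe, Fcgr3 and Cd34) summed to 25866 to 37900.5 nRPKM in GMPs and 4140 to 9907 in CMPs. None of the 11 mast cell markers was at 0 throughout a BMMC group. The 12 macrophage markers (Lyz2, Csf1r, the C1q genes and others) summed to 10908 to 20962 nRPKM in 9 of the 10 BMMC libraries, against 190 to 539 in the progenitors. Most of that sum in the 9 libraries was Lyz2, at 9432 to 18667 nRPKM. KO BMMC library 3 stood apart at a macrophage marker sum of 1150, with a mast cell marker sum of 76202 against 25850 to 47629 in the others. KO CMP library 2 also stood apart, with megakaryocyte and erythroid markers at 3013 nRPKM against 1019 to 1314 in the other KO CMP libraries. Calls and values are also given without these libraries, which were picked by their markers. Leaving out KO CMP library 1, which was not picked, moved some counts of genes more, as given below. In bulk samples, fewer cells of a type and less RNA per cell cannot be told apart.

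Irf8 was the most abundant member in progenitors and Irf5 in BMMCs. In WT GMPs, Irf8 was at 116, 127, 143 and 141 nRPKM, and in KO GMPs at 125, 131, 161 and 150.3. WT CMPs held 78.7, 75.2, 75.6 and 82.7 nRPKM, and KO CMPs 94.9, 55.3, 82.2 and 79.7, with the low value in library 2. All GMP libraries lay above all CMP libraries, and the genotypes overlapped in both cell types. Irf8 made up 58.8% ± 1.01 (SD, n = 4) of the summed level of the 8 members in WT GMPs, 43.6% ± 1.18 in WT CMPs and 11.9% ± 1.23 (SD, n = 5) in WT BMMCs.

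In BMMCs, Irf8 was at 16.5, 16.5, 23.7, 19.9 and 22.7 nRPKM in WT libraries. KO BMMCs held 22.8, 26.9, 1.92, 23.5 and 33.5 nRPKM, library 3 being the low one. Irf4, the closest relative of Irf8 and a factor of B cells, plasma cells and macrophage polarisation, had the opposite pattern across cell types. It was close to absent in progenitors, where the 16 libraries held 0 to 13 reads, and 4 of them held 0. In WT BMMCs it was at 8.69, 4.77, 8.31, 9.07 and 9.54 nRPKM, and in KO BMMCs at 5.84, 7.10, 0.159, 8.87 and 10.6. Library 3, with 13 reads, was again the exception, and library 2 was the low one among WT BMMCs.

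**Figure D1:**
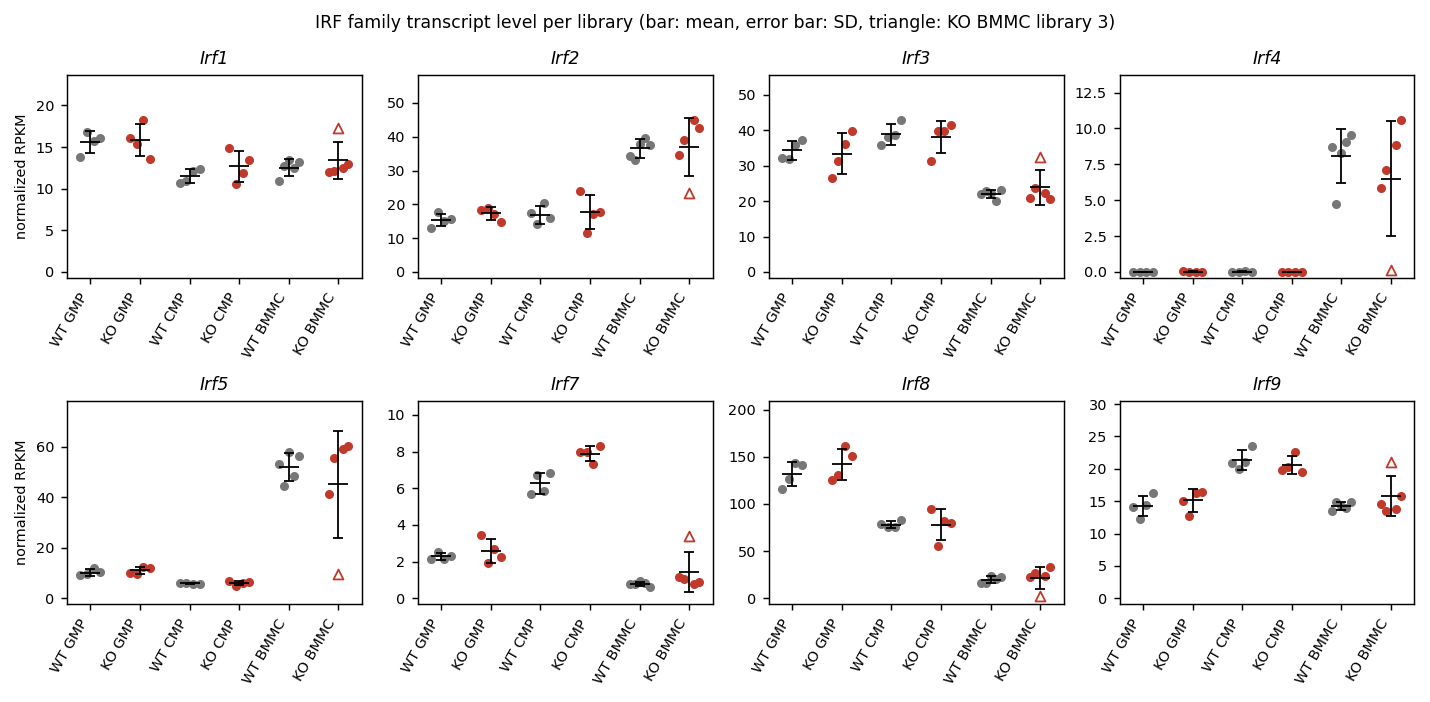
Transcript level of the 8 members (vertical axes, nRPKM, linear, a panel per gene) in each library of the 6 groups (horizontal axis), with the mean as a bar and the SD as an error bar (n = 4 for GMPs and CMPs, n = 5 for BMMCs). Irf8 is highest in GMPs, Irf2, Irf4 and Irf5 in BMMCs and Irf7 in CMPs, and the open triangle, KO BMMC library 3, lies outside the other BMMC libraries in every panel.

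Among the members activated by phosphorylation, Irf3 had the smallest fold range across cell types in WT libraries, and Irf5 and Irf7 had wider ones. Irf3, which is held in the cytosol until TBK1 phosphorylates it, ranked second in all 4 progenitor groups, at 34.3 ± 2.64 nRPKM (SD, n = 4) in WT GMPs and 38.8 ± 2.93 in WT CMPs. In WT BMMCs it was at 22.0 ± 1.17 (SD, n = 5). Irf5, which acts with MyD88 downstream of Toll-like receptors, was at 9.11, 9.54, 11.8 and 10.4 nRPKM in WT GMPs and at 6.06, 6.24, 5.80 and 5.64 in WT CMPs, with no overlap. WT BMMCs held 53.1, 44.4, 57.9, 48.5 and 56.6 nRPKM of Irf5, above every progenitor library. KO BMMCs held 41.4, 55.5, 9.65, 59.0 and 60.2, and library 3 was within the range of the GMPs.

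Irf7, an interferon-induced gene and the main driver of interferon alpha transcription, was low in GMPs, at 2.16, 2.52, 2.14 and 2.30 nRPKM in WT and 3.44, 1.92, 2.68 and 2.26 in KO libraries. It was at 5.69, 6.72, 5.86 and 6.81 nRPKM in WT CMPs and at 7.97, 7.98, 7.32 and 8.28 in KO CMPs. All CMP libraries lay above all GMP libraries, and in nRPKM the KO CMP libraries lay above the WT CMP libraries. In BMMCs Irf7 was the member with the lowest mean, at 0.638 to 0.923 nRPKM in WT libraries, from 36 to 55 reads. KO BMMCs were at 1.17, 1.05, 3.37, 0.805 and 0.869 nRPKM. Library 3 was the high one, and there Irf7 lay above Irf4 and Irf8.

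The remaining members act in the interferon response proper. Irf1, an activator induced by interferon gamma, was at 15.6 ± 1.30 nRPKM in WT GMPs, 11.6 ± 0.844 in WT CMPs (SD, n = 4) and 12.5 ± 1.01 in WT BMMCs (SD, n = 5). Irf2, which binds the same sites and counters Irf1, was at 15.4 ± 1.90 and 17.0 ± 2.67 nRPKM in WT GMPs and CMPs and at 36.5 ± 2.71 in WT BMMCs. Irf9, the DNA-binding subunit of the ISGF3 complex, was at 14.3 ± 1.60 nRPKM in WT GMPs, 21.3 ± 1.51 in WT CMPs and 14.3 ± 0.597 in WT BMMCs.

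Within WT GMPs the order was Irf8, Irf3, Irf1, Irf2, Irf9, Irf5, Irf7 and Irf4. Irf1, Irf2 and Irf9 overlapped as neighbours in this order, and every other pair of neighbours was separated in all libraries. In WT CMPs the order was Irf8, Irf3, Irf9, Irf2, Irf1, Irf7, Irf5 and Irf4, with overlapping ranges for Irf9 and Irf2 and for Irf7 and Irf5. In WT BMMCs it was Irf5, Irf2, Irf3, Irf8, Irf9, Irf1, Irf4 and Irf7, and only Irf3 and Irf8 overlapped. The KO groups had the same order as WT in CMPs and BMMCs, and in GMPs Irf2 and Irf1, which overlap, changed places. In KO BMMCs, neighbours overlapped at every step but that from Irf1 to Irf4, and library 3 lay outside the other BMMC libraries for each member. The summed level of the family was 200.3 to 239 nRPKM in WT GMPs, 171 to 190.0 in WT CMPs and 149.96 to 178 in WT BMMCs.

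**Figure D2:**
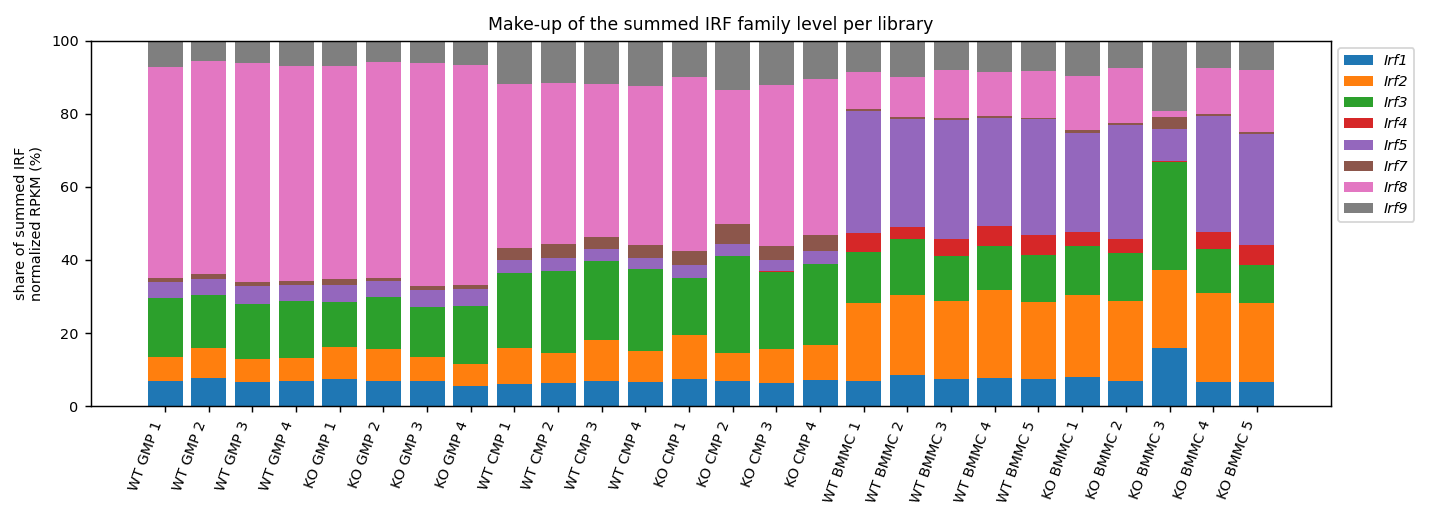
Share of each member in the summed nRPKM of the 8 members (vertical axis, percent), stacked for each of the 26 libraries (horizontal axis). Irf8 takes 57.8% to 61.0% in GMPs, Irf5 takes 29.5% to 33.3% in WT BMMCs, and KO BMMC library 3 holds 1.76% Irf8 and 8.83% Irf5.

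The comparison of GMPs with CMPs asked how the family differs between neighbouring progenitor stages. A member was called where edgeR's quasi-likelihood test gave a Benjamini-Hochberg adjusted p under 0.01 over all genes tested and at least a 2-fold change. Irf4 had too few reads and was not tested, which leaves 7 members. In WT libraries Irf7 was lower in GMPs, with a log2 fold change of -1.44 (SE 0.14, adjusted p = 2.40e-05), and it was the 1 member called, against 12.8% of all 14967 genes. In KO libraries Irf7 was again the 1 member called (-1.57, SE 0.20, adjusted p = 0.000714), against 8.42% of genes.

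Without the limit on fold change and at an adjusted p under 0.05, 5 members differed in WT libraries, against 37.8% of genes. Irf8 was higher in GMPs by 0.77 on the log2 scale (SE 0.11, adjusted p = 0.000287), Irf5 by 0.80 (SE 0.12, adjusted p = 0.000660) and Irf1 by 0.45 (SE 0.11, adjusted p = 0.0108). Irf9 was lower at -0.56 (SE 0.12, adjusted p = 0.00392). Irf2 (-0.13, SE 0.15, adjusted p = 0.513 by edgeR) and Irf3 (-0.16, SE 0.11, adjusted p = 0.246 by edgeR) did not pass. In KO libraries 3 members passed this limit, against 21.5% of genes, namely Irf7, Irf5 (0.91, SE 0.17, adjusted p = 0.00547) and Irf8 (0.90, SE 0.21, adjusted p = 0.0140). Irf9 (-0.40, SE 0.15, adjusted p = 0.0796) and Irf1 (0.36, SE 0.17, adjusted p = 0.136) did not pass. With all 26 libraries in 1 fit, Irf5 (adjusted p = 0.0526) and Irf8 (adjusted p = 0.155) no longer passed in WT libraries, which left 3 members, and with library size alone Irf3 (adjusted p = 0.0494) passed in place of Irf1 (adjusted p = 0.0608). In KO libraries Irf8 was lost with all 26 libraries in 1 fit (adjusted p = 0.0829), where Irf1 and Irf9 passed, with library size alone (adjusted p = 0.0572) and without KO GMP library 3 (adjusted p = 0.0532), all by edgeR.

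In nRPKM, the groups did not overlap for 5 of 7 members in WT libraries, against 31.5% of genes, and for 4 of 7 in KO libraries, against 28.5%. Each of these had an exact two-sided permutation p of 0.0286, the smallest that 4 libraries against 4 can give. With library size alone in place of TMM normalization, the median of all genes moved to -0.16 on the log2 scale in the WT comparison, from -0.02. The genes called were then 764 higher and 1228 lower in GMPs, against 940 and 978, and in KO libraries 408 and 701, against 604 and 655. Without KO CMP library 2, Irf7 was at -1.58 (SE 0.20) and Irf8 at 0.76 (SE 0.14). Without KO CMP library 1, Irf8 was also called between KO GMPs and KO CMPs (1.02, adjusted p = 0.00564). In all 2266 genes were then called, against 1259 with all libraries and 1345 without KO CMP library 2. The test of whether the GMP and CMP genotype effects differ gave 0 of 7 members and 0% of genes at an adjusted p under 0.01 by edgeR, limma voom and DESeq2, with 0 members and 169 genes at an unadjusted p under 0.05 by edgeR.

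**Figure D3:**
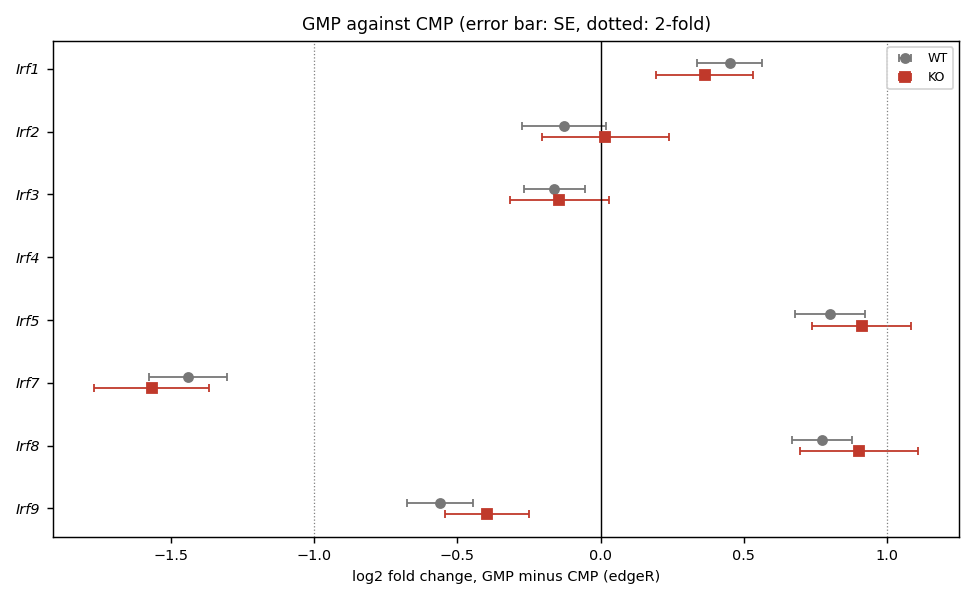
Log2 fold change of GMPs over CMPs (horizontal axis, edgeR) for the 7 members tested (vertical axis), in WT (grey) and KO (red) libraries, with the standard error as an error bar and 2-fold changes as dotted lines. Irf7 lies beyond the 2-fold line at -1.44 in WT and -1.57 in KO, and Irf5 and Irf8 lie between 0.77 and 0.91.

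Genes that act with the family were followed as lists, and their counts stand beside the 12.8% of all genes called in WT libraries. Among 20 adaptors and sensors that activate Irf3, Irf5 and Irf7, 3 were higher in WT GMPs than in WT CMPs and none was lower, a share near that of all genes, with a list median of 0.40 against -0.02 over all genes. They were the kinase Ikbke (2.07, SE 0.16), the adaptor Traf3 (1.46, SE 0.31) and Unc93b1 (1.19, SE 0.10), which carries Toll-like receptors to endosomes. Of 22 interferon-stimulated genes, 21 were tested, 5 were lower in WT GMPs and none was higher, with a median of -0.53. The largest changes were in Rtp4 (-2.15, SE 0.22), Ifi44 (-2.13, SE 0.30) and Ifi27l2a (-1.84, SE 0.31).

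Of the 10 partners of Irf4 and Irf8, 8 were tested and Spi1, which encodes PU.1, was the 1 that was called (1.32, SE 0.13). Of 15 monocyte and dendritic cell genes linked to Irf8, 14 were tested, 4 were higher and 1 was lower in WT GMPs. The largest changes were in Ly6c2, a monocyte surface protein (3.22, SE 0.22), Klf4, a monocyte factor (3.15, SE 0.47), and Flt3, the receptor of dendritic cell progenitors (-2.65, SE 0.16). Among 11 interferon receptor and ISGF3 genes, the receptor chain Ifngr2 was higher (1.12, SE 0.12) and Usp18, an interferon-induced brake on the receptor, was lower (-1.64, SE 0.15). Of the 3 Irf2-binding cofactors, Irf2bp2 was higher (1.31, SE 0.21).

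In KO libraries, where 8.42% of all genes were called, the calls in these lists were Ikbke (1.87, SE 0.28) and Unc93b1 (1.24, SE 0.21), Rtp4 (-2.14, SE 0.22) and Xaf1 (-1.04, SE 0.20) among interferon-stimulated genes, Spi1 (1.25, SE 0.19), Usp18 (-1.22, SE 0.24), Irf2bp2 (1.20, SE 0.25), and Klf4 (3.34, SE 0.33), Ly6c2 (2.91, SE 0.30) and Flt3 (-2.63, SE 0.29). Without KO CMP library 2, Irf2bp2 fell just short of 2-fold (0.999, SE 0.15), Ifi44 was also called (-1.89, SE 0.34), and the other 9 genes were called again.

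The comparison of genotypes asked whether loss of NSP4 goes with a change in the family. No member was called in GMPs (0 of 7, against 0.00681% of genes), in CMPs (0 of 7, against 0.0067%) or in BMMCs (0 of 8, against 0%). The only gene called in GMPs and in CMPs was Prss57 itself. limma voom and DESeq2 also called 0 members in each cell type. At an unadjusted p under 0.05 by edgeR there were 0 members in each cell type, and 119, 76 and 332 of all genes in GMPs, CMPs and BMMCs. DESeq2 gave 0, 1 and 1 member at that limit, and limma voom 0 in each. Every adjusted p of a member was 1.00 after rounding.

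In GMPs the log2 fold changes of KO over WT lay between -0.04 (Irf3, SE 0.13) and 0.18 (Irf7, SE 0.19), and 0 of 7 members were without overlap, against 0.994% of genes. In CMPs they lay between -0.07 (Irf9, SE 0.13) and 0.31 (Irf7, SE 0.15). In nRPKM, Irf7 was the 1 member whose groups did not overlap, against 0.818% of genes. It was at 6.27 ± 0.576 nRPKM in WT and 7.89 ± 0.404 in KO CMPs (SD, n = 4). That separation, and the permutation p given below, hold for nRPKM only. In CPM, which scales by library size alone, the groups overlapped. KO CMP library 2 was then at 16.71, against 16.78 to 19.75 in WT CMPs, and the other KO CMP libraries were at 21.53 to 25.55. Without KO CMP library 2 the log2 fold change of Irf7 was 0.31 (SE 0.15) and that of Irf8 went from -0.02 (SE 0.19) to 0.12 (SE 0.13). Leaving out KO CMP library 1 instead gave 0 members and 561 genes at an unadjusted p under 0.05 by edgeR. That compares with 76 genes with all libraries and 211 without KO CMP library 2. For Irf7, the exact two-sided permutation p was 0.0286, the smallest possible, and its unadjusted p by edgeR's quasi-likelihood test was 0.0624 with an adjusted p of 1.00. In the same libraries, 0 of 22 interferon-stimulated genes were called by edgeR, 1 had an unadjusted p under 0.05, and the list median was 0.11 against 0.03 over all genes.

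In BMMCs, 0 of 8 members were without overlap, against 0.717% of genes, and the log2 fold changes ranged from -0.31 (Irf4, SE 0.66) to 0.86 (Irf7, SE 0.40). Both extremes changed without KO library 3. Irf4 was then at -0.00011 (SE 0.22) and Irf7 at 0.29 (SE 0.17, adjusted p = 0.771 by edgeR). Irf8 went from 0.13 (SE 0.52) to 0.42 (SE 0.14). The adjusted p of Irf8 was then 0.595 by edgeR. Without that library 0 members were called, 1 member and 1031 genes had an unadjusted p under 0.05, and 0 genes were called in all.

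Among the lists of genes that act with the family, edgeR called 0 in any of the 3 cell types. At an unadjusted p under 0.05 the interferon-stimulated list held 3 of 20 genes tested in GMPs, 1 of 22 in CMPs and 0 of 19 in BMMCs. The interferon receptor and ISGF3 list held 1 of 11 genes in BMMCs. Over all genes tested there were 119 of 14689 in GMPs, 76 of 14916 in CMPs and 332 of 13938 in BMMCs. Without KO CMP library 2 or KO BMMC library 3, 0 list genes were called. In BMMCs without KO library 3, 5 of the 15 genes linked to Irf8 had an unadjusted p under 0.05 by edgeR, against 0 with all libraries. The same held for 1031 of all 14162 genes and for 5 of the 12 macrophage markers, which share Csf1r and Fcgr1 with the Irf8 list.

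**Figure D4:**
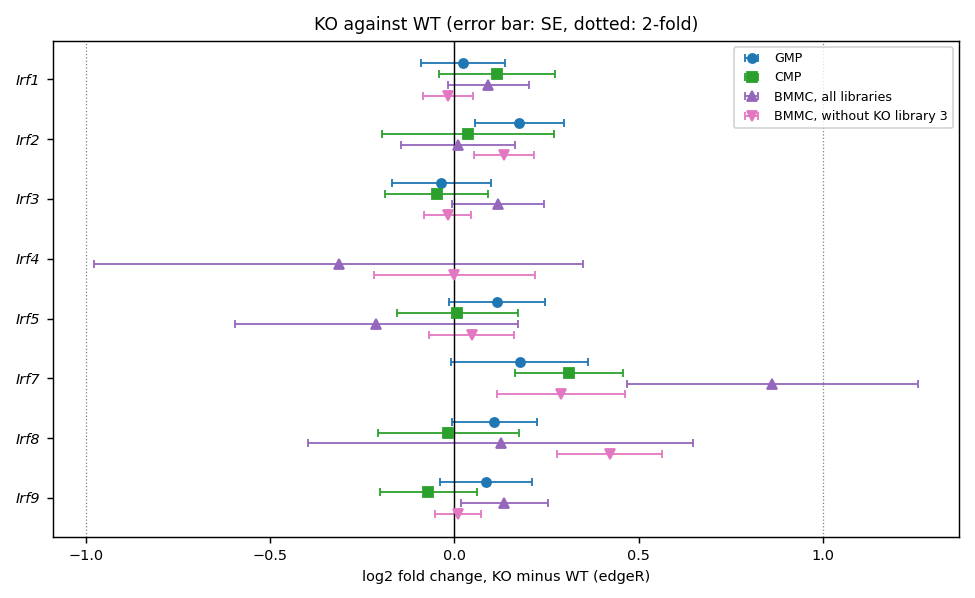
Log2 fold change of KO over WT (horizontal axis, edgeR) for each member (vertical axis) in GMPs, CMPs and BMMCs, and in BMMCs without KO library 3, with the standard error as an error bar. All points lie within the 2-fold lines, and the widest bars, for Irf4, Irf8, Irf7 and Irf5 in BMMCs, shorten when KO library 3 is left out.

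BMMCs differ from the progenitors in sex, sequencing run and culture as well as in cell type, and these cannot be told apart. The macrophage markers given above also differ, and so do the 12 dendritic cell markers. The dendritic cell markers summed to 894 to 1931 nRPKM in BMMC libraries other than KO library 3, against 43.6 to 153 in the progenitors. The part of both marker lists in these results was not tested. Of 8 members, 5 were called between WT BMMCs and WT GMPs, against 51.7% of genes. Irf4 (log2 fold change 9.13, SE 0.39, adjusted p = 8.20e-10), Irf5 (2.26, SE 0.11, adjusted p = 3.93e-09) and Irf2 (1.16, SE 0.10, adjusted p = 4.06e-07) rose. Irf8 (-2.82, SE 0.13, adjusted p = 1.74e-09) and Irf7 (-1.62, SE 0.16, adjusted p = 9.20e-07) fell. Irf4 passed the read filter only through the BMMC libraries, where it is high, so its call is not an independent test. The size of its value rests on 0 to 6 reads per WT GMP library. With at least 10 counts required in every library, Irf4 was not tested. Then 4 of 7 members were called, against 5539 of 12074 genes.

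Of 8 members, 5 were called between WT BMMCs and WT CMPs, against 57.5% of genes, a comparison that shares the BMMC libraries with the one before. Irf4 was at 8.56 (SE 0.42), Irf5 at 3.04 (SE 0.11) and Irf2 at 1.02 (SE 0.11) on the log2 scale, and Irf7 was at -3.08 (SE 0.15) and Irf8 at -2.07 (SE 0.12). The call of Irf4 has the same limit here, with 0 to 13 reads per WT CMP library. With 10 counts required in every library, 3 of 7 members were called, against 6371 of 12083 genes. Irf2 lay at the fold limit and was not called without WT CMP library 2 (0.94), WT CMP library 4 (0.97) or WT BMMC library 4 (0.99). Irf3 (-0.73, SE 0.08, against GMPs and -0.91, SE 0.09, against CMPs) had adjusted p-values of 4.58e-06 and 5.02e-07 by edgeR but stayed within 2-fold. With library size alone, which moved the median of all genes to -0.31 on the log2 scale, Irf3 was called against CMPs (-1.22) and Irf2 was not (0.70). Against GMPs the median moved to -0.19, and Irf2 (0.96) was not called either, which left 4 members.

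Between KO BMMCs and KO GMPs 3 of 8 members were called, against 47.9% of genes. They were Irf4 (7.70, SE 1.11, adjusted p = 0.000158), Irf5 (1.94, SE 0.45, adjusted p = 0.00294) and Irf8 (-2.80, SE 0.59, adjusted p = 0.00171). Irf4 again passed the filter only through the BMMC libraries, with 2 to 13 reads per KO GMP library. With 10 counts required in every library, it was not tested and 3 of 7 members were called, against 5132 of 11753 genes. Without KO BMMC library 3, 5 members were called, Irf2 (1.12, SE 0.11) and Irf7 (-1.50, SE 0.22) being the others. Irf8 was then at -2.50 (SE 0.14). Irf2 (0.99 with all libraries) was also called without KO BMMC library 1 (1.03), KO GMP library 1 (1.04), KO GMP library 2 (1.07) or KO GMP library 3 (1.02). Irf5 was not called without KO GMP library 1, 2 or 4, where its adjusted p by edgeR was 0.0109, 0.0105 and 0.0101. With all libraries, limma voom called Irf8 only (-3.20, adjusted p = 0.00240), and Irf5 was at 1.72 (adjusted p = 0.0117) and Irf4 at 7.11 (adjusted p = 0.0376).

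The same lists were compared between WT BMMCs and WT GMPs, where 51.7% of all genes were called. Among the activators of Irf3, Irf5 and Irf7, 5 of 20 were higher and 1 was lower in WT BMMCs than in WT GMPs, a smaller share than that of all genes, led by the endosomal receptors Tlr8 (6.08, SE 0.33), Tlr7 (4.62, SE 0.27) and Tlr3 (4.32, SE 0.41). Of the interferon-stimulated genes, 20 were tested, 3 were higher and 10 were lower, with a median of -0.87 against a median of -0.00 over all genes. Ifi44 (-4.71, SE 0.50), Mx1 (3.70, SE 0.39) and Gbp3 (-2.90, SE 0.15) changed most. Ifi44 was near the lower limit in BMMCs, at 0 to 0.0812 nRPKM in the 9 libraries other than KO library 3. Of the 10 partners of Irf4 and Irf8, 5 were higher and none was lower, led by Spib (5.73, SE 0.64), Jun (5.30, SE 0.29) and Batf3 (4.76, SE 0.63). The WT GMP libraries held 0 to 10 reads of Spib and 0 to 20 of Batf3, which limits the size of these 2 values. Spib is also on the plasmacytoid and Batf3 on the dendritic cell marker list. Of the 15 genes linked to Irf8, 9 were higher and 4 were lower, with Ciita (6.86, SE 0.36) and Cd74 (5.87, SE 0.32) of antigen presentation and Ly86 (-6.17, SE 0.20) in the lead. Of 11 interferon receptor and ISGF3 genes, 5 were higher and 1 was lower, led by the signalling inhibitor Socs1 (6.01, SE 0.14), and Irf2bpl (4.11, SE 0.11) and Irf2bp1 (-1.25, SE 0.11) changed among the Irf2-binding cofactors.

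KO BMMC library 3 differed from the other 9 BMMC libraries in every member, with 4 members below and 4 above their range. This was so for 71.7% of all 13938 genes tested in BMMCs. Irf8 was 11.9-fold below the median of the others, Irf5 5.75-fold, Irf2 1.63-fold and Irf4 54.5-fold, from 13 reads. Irf7 was 4.07-fold above that median, Irf9 1.48-fold, Irf3 1.47-fold and Irf1 1.38-fold.

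All 12 macrophage markers were below the other 9 libraries, by 5.17-fold (Fcgr1) to 16.3-fold (C1qc) against the median. Among dendritic cell markers 10 of 12 were below. Of the genes linked to Irf8, 13 of 15 were below, with a median of 9.31-fold, and Cx3cr1, a monocyte and microglia receptor (29.0-fold), and Id2 (2.14-fold) were above. Of the 11 mast cell markers 8 were above, including the proteases Mcpt4 (7.20-fold) and Cma1 (5.78-fold). Tpsb2 lay within the range of the others, and Tpsab1 (53.6-fold) and Hdc (1.57-fold) were below. The part of these markers in the values of the family in that library was not tested. Among the other 9 libraries, Irf8 was lowest, at 16.5 nRPKM, in the WT libraries 1 and 2, whose macrophage marker sums were the lowest at 12992 and 10908. Irf8 was highest, at 33.5 nRPKM, in KO library 5, which had the highest sum at 20962. Lyz2 made up most of these sums.

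**Figure D5:**
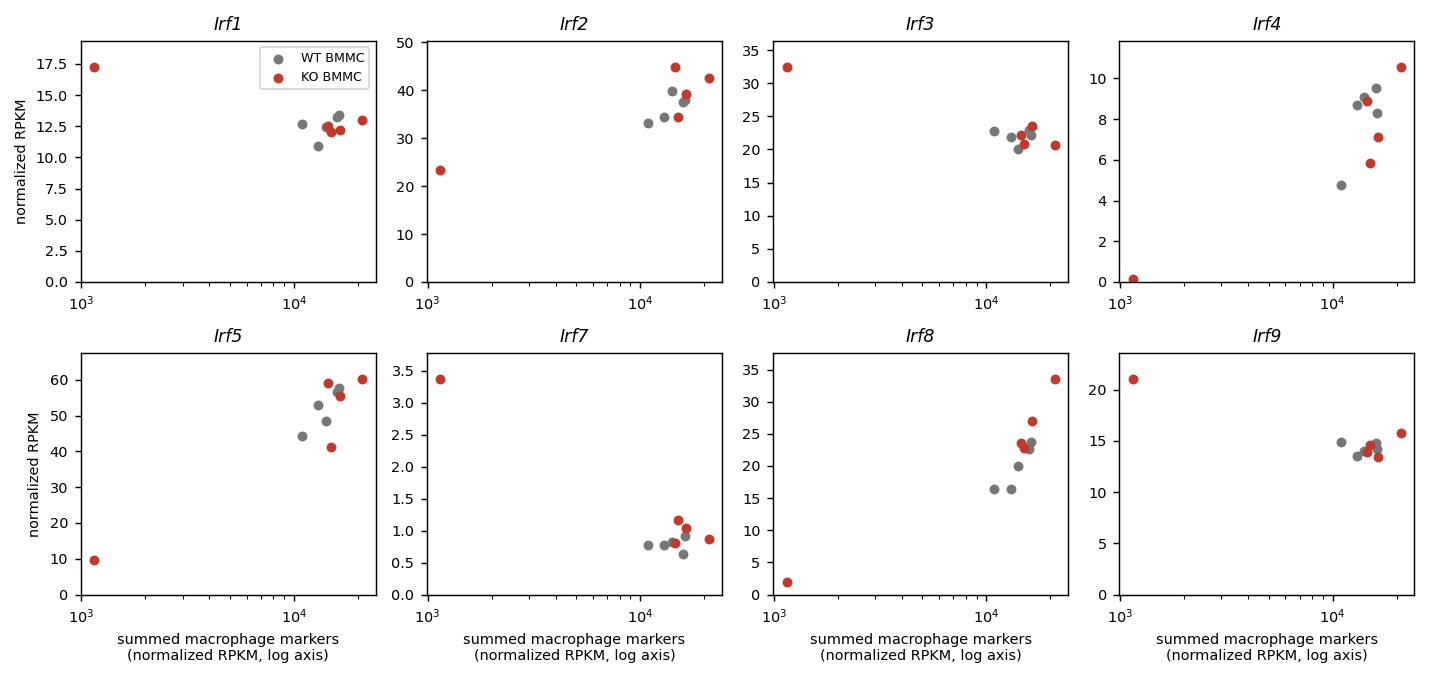
Level of each member (vertical axes, nRPKM, linear) against the summed nRPKM of 12 macrophage markers (horizontal axes, log scale) in the 5 WT and 5 KO BMMC libraries. Most of the sum is Lyz2. KO library 3 lies alone at a sum of 1150, low for Irf2, Irf4, Irf5 and Irf8 and high for Irf1, Irf3, Irf7 and Irf9.

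Likeness to Irf8 and Irf7 was described by Pearson's r of log2 CPM. Over the 16 progenitor libraries, which fall into 2 cell types, the 5 genes most like Irf8 among 15900 were Cyth4 (0.991), Selplg (0.988), Lbh (0.987), Arhgef10l (0.985) and Gnai2 (0.985). Irf5 ranked 11 at 0.982. Those most like Irf7 were Gprasp2 (0.969), Prnp (0.966), Zg16 (0.965), Gm15915 (0.963) and Abcb4 (0.962), and r between Irf7 and Irf8 was -0.839. All these points share the difference between GMPs and CMPs.

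With the mean of each group subtracted, over all 26 libraries and 16758 genes, Tifab (0.991), Itgb5 (0.990), Mpeg1 (0.990), Vsir (0.990) and Unc93b1 (0.989) were most like Irf8. For Irf7 they were Abhd15 (0.902), Ppp1r3g (0.885), Slc7a4 (0.879), Grin2c (0.879) and Lyl1 (0.877). These rest on KO BMMC library 3. Without it, a choice made after seeing the data, those most like Irf8 were Cyth4 (0.913), Psap (0.905), Trafd1 (0.895), Hpcal1 (0.895) and Tifab (0.887). For Irf7 they were then H2-M2 (0.785), Gfpt2 (0.723), Spry4 (0.700), Cobl (0.695) and Hmgb1-ps1 (0.650). Within groups, r between Irf5 and Irf8 went from 0.978 to 0.795, and that between Irf7 and Irf8 from -0.819 to 0.013.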

How the data were processed

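RNA was measured in 26 libraries. Per the study's methods, single-end reads were aligned by GSNAP within HTSeqGenie (build GRCm38). The authors deposited, per gene, the raw count of uniquely aligned exon reads and a size-factor-scaled RPKM (nRPKM). Counts were tested as deposited, and nRPKM served for levels. Of 52636 identifiers, 52403 were matched to symbols.

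Each comparison was fitted on its own groups with edgeR 4.0.16 in R 4.3.3 (TMM, filterByExpr, robust quasi-likelihood test), and p-values were adjusted by Benjamini-Hochberg over all genes tested. A call required an adjusted p below 0.01 together with a 2-fold difference, and for the interaction the adjusted p alone. Alternatives were limma 3.58.1 voom, DESeq2 1.42.0, RLE factors, library size only, no filter beyond 1 count, 10 counts in every library, a replicate block, a joint fit of the 26 libraries, leaving out each library, and an adjusted p below 0.05 with no fold limit. Single members were compared on nRPKM by exact two-sided permutation in scipy 1.17.1 (smallest p 0.0286 for 4 against 4). Log2 CPM for likeness used a prior count of 2. The fit was tested on simulated data.

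The members and gene lists were chosen with earlier results of these data known. The text names all 8 members, Prss57, at most 3 called genes per list with the largest change, the 5 genes most like Irf8 and Irf7, and markers of libraries that stand apart. Tpsab1, Tpsb2, Hdc, Id2, Cx3cr1 and the promoters shown were chosen after their values were seen. Replicates were separate samples per the labels, so p-values measure the spread between these samples. Counts are of reads and not of molecules, and the limit of 3 counts covers counting error only.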

Additional observations from a re-analysis of the deposited data

Results flagged for a closer look

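The highest or lowest library of each member was set against the rest of its group by Dixon's ratio, in 48 sets of a gene and a group. Chance passes about 1 in 20, or 2.4 sets, and 4 passed. In KO BMMC library 3, Irf1 was at 17.3 nRPKM against 12.0 to 13.0 in the other 4 KO BMMC libraries, Irf3 at 32.5 against 20.6 to 23.6, and Irf7 at 3.37 against 0.805 to 1.17. In WT BMMC library 2, Irf4 was at 4.77 nRPKM against 8.31 to 9.54 in the other WT BMMC libraries. The low values of Irf2, Irf4, Irf5 and Irf8 in KO BMMC library 3 did not pass this ratio, since the other KO BMMC libraries also spread.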

How the results depend on the processing

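No alternative called a member between genotypes in GMPs, CMPs or BMMCs or in the interaction, and each library left out in turn also gave 0. The libraries were not taken as paired by replicate number, and whether they are paired was not settled. No comparison had every same-numbered pair correlated above 0.1, a limit that cannot exclude pairing. The mean correlation of same-numbered pairs was lowest in KO against WT BMMCs, at -0.033 against 0.012 for other pairs. It was highest in KO GMPs against KO CMPs, at 0.152 against -0.049. With the replicate block, 1 member was called between KO BMMCs and KO GMPs, 1 with limma voom, 5 without KO BMMC library 3 and 6 at an adjusted p under 0.05 without a fold limit, against 3, and leaving out libraries gave 2 to 5. The block kept Irf4 (6.96) and not Irf5 (1.60) or Irf8 (-3.34). The looser limit gave 5 members between WT GMPs and WT CMPs (3 with all 26 libraries in 1 fit). Between KO GMPs and KO CMPs it gave 3, with 2 to 4 over the alternatives and also 2 to 4 on leaving out libraries. Under the rule with the 2-fold limit, leaving out libraries gave 1 to 2 in that comparison. A minimum of 10 counts in every library gave 3 between WT BMMCs and WT CMPs, since Irf4 was then not tested and Irf2 was at 0.97, and leaving out libraries gave 4 to 5. In the other comparisons the replicate block changed no count of calls.

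No called value changed sign. The log2 fold changes that did lay between -0.21 and 0.13 on the log2 scale with the settings of the report, and the cause was not tested. With library size only they were -0.0099 for Irf2 and -0.056 for Irf5 in KO against WT CMPs, -0.069 for Irf2 in KO GMPs against KO CMPs and -0.28 for Irf1 in WT BMMCs against WT CMPs. With the replicate block they were -0.0020 for Irf2 and -0.0026 for Irf5 in KO against WT CMPs, -0.022 for Irf2 and -0.12 for Irf8 in KO against WT BMMCs and -0.0023 for Irf3 in the interaction. With no filter they were -0.0039 for Irf5 in KO against WT CMPs. With limma voom they were -0.025 for Irf2 and -0.28 for Irf8 in KO against WT BMMCs and -0.0052 for Irf3 in the interaction. With 10 counts in every library they were -0.0037 for Irf2 in KO GMPs against KO CMPs and -0.021 for Irf1 in WT BMMCs against WT CMPs. With all 26 libraries in 1 fit they were -0.0062 for Irf2 in KO GMPs against KO CMPs. With DESeq2 they were 0.0094 for Irf9 in KO BMMCs against KO GMPs and -0.0032 for Irf3 in the interaction. With RLE factors they were 0.0097 for Irf9 in KO BMMCs against KO GMPs and -0.0030 for Irf3 in the interaction. Leaving out libraries in turn moved values across 0 as follows. For KO against WT GMPs, the range was -0.047 to 0.091 for Irf1 and -0.13 to 0.071 for Irf3. For KO against WT CMPs, the range was -0.16 to 0.19 for Irf2, -0.090 to 0.015 for Irf3, -0.085 to 0.088 for Irf5 and -0.14 to 0.12 for Irf8. For KO against WT BMMCs, the range was -0.018 to 0.14 for Irf1, -0.074 to 0.14 for Irf2, -0.018 to 0.18 for Irf3, -0.34 to 0.047 for Irf5 and -0.082 to 0.42 for Irf8. For WT GMPs against WT CMPs, the range was -0.20 to 0.0044 for Irf2. For KO GMPs against KO CMPs, the range was -0.15 to 0.20 for Irf2. For WT BMMCs against WT CMPs, the range was -0.027 to 0.076 for Irf1. For KO BMMCs against KO GMPs, the range was -0.16 to 0.044 for Irf9. For the interaction, the range was -0.19 to 0.0093 for Irf1, -0.030 to 0.33 for Irf2, -0.072 to 0.12 for Irf3 and -0.025 to 0.25 for Irf8. Without KO BMMC library 3, r within groups was 0.013 between Irf7 and Irf8 and 0.795 between Irf5 and Irf8. Depth limits Irf4 in the progenitors (0 to 13 reads) and Irf7 in BMMCs (36 to 138 reads).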
